A study of Brassica oleracea var. capitata with 6 samples.

Results

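The transcripts described here are 163 well expressed new loci of cabbage leaves, out of 31497 features whose expression was measured. A new locus is a transcribed stretch that the assembly of the reads found outside the gene models of the reference genome. Members were chosen by 2 criteria: a locus number under 35000, and a mean of at least 10 FPKM over all 6 libraries. FPKM is a fragment count divided by the length of the transcript and by the size of the library. Another 3 loci, Kohlrabi_newGene_4041, Kohlrabi_newGene_5485 and Kohlrabi_newGene_3371, were left out by name and had means of 1.99, 2.78 and 2.28 FPKM. The features comprised 27024 annotated genes, 3594 other new loci numbered below 35000, members included, and 876 numbered from 35000.

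The libraries were made from total RNA of *Brassica oleracea* var. *capitata* leaves at the harvesting stage. Wild-type plants gave 3 libraries and plants of the non-wax glossy mutant *nwgl* gave the other 3, each a biological replicate. The mutant was derived from the inbred line G287, carries a dominant mutation, and its leaves lack the waxy bloom of normal cabbage. The labelled tissue could not be checked against leaf markers, because the expression tables do not pair IDs with gene names, and 0 of the 31497 IDs occurred in the RefSeq gene table of this species.

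A genome annotation lists the genes that its makers recognised, mostly those that encode proteins. Reads that align elsewhere are joined by an assembler such as StringTie into further transcripts, which can be unannotated protein-coding genes, exons or untranslated ends missed by a gene model, copies of repeats, or long noncoding RNAs (lncRNAs), which are long transcripts with no evident reading frame. In plants, lncRNAs are known as regulators of transcription, as precursors or decoys of small RNAs and as antisense partners of genes, and many are transcribed at low levels. The tables give neither a position nor a sequence for these loci, so what each of them encodes is not stated here, and each is called by its ID.

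The 6 libraries differed in how much of the signal fell on a few features. The 10 most abundant features of a library took between 22.7% and 57.3% of its summed FPKM, and the sum itself was between 291844 and 451537. FPKM above 0 was listed for 24593 to 27587 features. The number of reads behind a value is unknown, since only FPKM was used. Ratios that recurred among low values, on 7 to 18 genes a library, put the depths between 0.953 and 1.09 times that of wild-type replicate 2, an estimate that rests on these few genes.

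The first question was how abundant these loci were against annotated genes. Most new loci were low: of those below 35000, 66.4% had a mean under 1 FPKM, against 41.3% of the annotated genes. Their medians were 0.397 and 1.90 FPKM. A mean of 10 FPKM was reached by 163 of the 3594 new loci (4.54%), by 34 of the 876 later ones (3.88%), and by 4551 annotated genes (16.8%). The members were selected on this mean, so the values that follow describe them and carry no test.

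Just inside the threshold lay Kohlrabi_newGene_30498, Kohlrabi_newGene_8451 and Kohlrabi_newGene_22197, all at 10.1 FPKM. Just outside it lay Kohlrabi_newGene_31353 at 9.94, Kohlrabi_newGene_6875 at 9.86 and Kohlrabi_newGene_5425 at 9.80 FPKM. The values run through the threshold without a gap.

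Among features past 10 FPKM, new loci and annotated genes had similar typical levels. The median of the means was 18.6 FPKM over members and 17.8 over the 4551 annotated genes. Their interquartile ranges ran from 12.3 to 35.6 and from 12.9 to 29.4 FPKM. Between 10 and 20 FPKM lay 88 members (54.0%) and 57.3% of the annotated genes, and between 20 and 50 FPKM lay 50 members (30.7%) and 32.0%. The members differed from the annotated genes at the upper end. A mean of at least 100 FPKM was held by 17 members (10.4%) and by 169 annotated genes (3.71%), and 15 members stood among the 100 most abundant features of all. By the median of the 6 libraries, which a single high library cannot set, 13 members (7.98%) and 141 annotated genes (3.10%) reached 100 FPKM. Of the 17 members, 6 (35.3%) differed over 10-fold between their highest and lowest library, as did 35 (20.7%) of the 169 annotated genes.

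**Figure D1:**
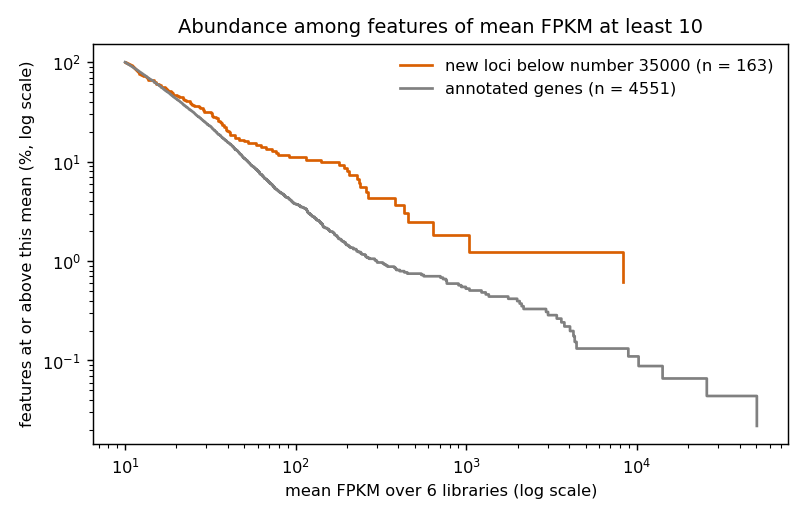
Distribution of the mean FPKM over 6 libraries (log axis) among features of at least 10 FPKM, for the 163 members and the annotated genes. The curves run together up to about 50 FPKM, and above 100 FPKM the members hold a larger share (10.4%) than the annotated genes (3.71%).

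The most abundant member, Kohlrabi_newGene_18376, was among the features of highest FPKM in these libraries. It measured 8449, 8023 and 6425 FPKM in wild-type replicates 1, 2 and 3, and 9844, 7988 and 9309 FPKM in *nwgl* replicates 1, 2 and 3. All 6 libraries were high, and the genotypes overlapped. With a mean of 8340 FPKM it stood at rank 7 of all features, and within single libraries at ranks 4 to 10. It alone made up 39.5% to 61.2% of the members' summed FPKM. Its mean was 7633 ± 1067 FPKM (SD, n = 3) in the wild-type and 9047 ± 955 (SD, n = 3) in *nwgl*. The log2 fold change was 0.25 with a standard error of 1.93 and an adjusted p of 0.979 by limma.

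That standard error comes from the fit, which draws the variance of each feature towards the variance of features of like abundance, and few features are this abundant. For Kohlrabi_newGene_18376 the SD between plants was 0.185 on the log2(FPKM + 0.1) scale, and without the trend the standard error was 0.375 (adjusted p = 0.873 by limma).

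The next was Kohlrabi_newGene_26239, with 1243, 1052 and 1317 FPKM in the wild-type and 871, 747 and 1022 in *nwgl*. Every *nwgl* library was below every wild-type library, but the log2 fold change of -0.46 (SE 0.89, adjusted p = 0.905 by limma) did not pass the test. This locus and Kohlrabi_newGene_18376 were the 2 members past 1000 FPKM (1.23%), a level that 23 annotated genes (0.505%) also reached.

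Of the other 6 of the highest 8, 3 were high in all plants. Kohlrabi_newGene_14255 had 434, 615 and 436 FPKM in the wild-type and 444, 346 and 456 in *nwgl*. Kohlrabi_newGene_26430 had 448, 368 and 314 FPKM in the wild-type and 400, 306 and 450 in *nwgl*. Kohlrabi_newGene_32012 had 143, 283 and 405 FPKM in the wild-type and 185, 224 and 303 in *nwgl*. All 3 were above 100 FPKM in every library, with overlapping genotypes.

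In the remaining 3 the mean rested on few libraries. Kohlrabi_newGene_13207 had 6.06, 192 and 133 FPKM in the wild-type and 51.9, 3107 and 359 in *nwgl*. Kohlrabi_newGene_26238 had 146, 37.4 and 1617 FPKM in the wild-type and 7.43, 462 and 324 in *nwgl*. Kohlrabi_newGene_22952 had 306, 1046 and 0 FPKM in the wild-type and 247, 0 and 0 in *nwgl*. The first was highest in *nwgl* replicate 2, the second in wild-type replicate 3 and the third in wild-type replicate 2, so a mean over these libraries describes no single plant. For Kohlrabi_newGene_13207 the log2 fold change was 2.84 with a 95% interval from -0.75 to 6.43 (adjusted p = 0.464 by limma).

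**Figure D2:**
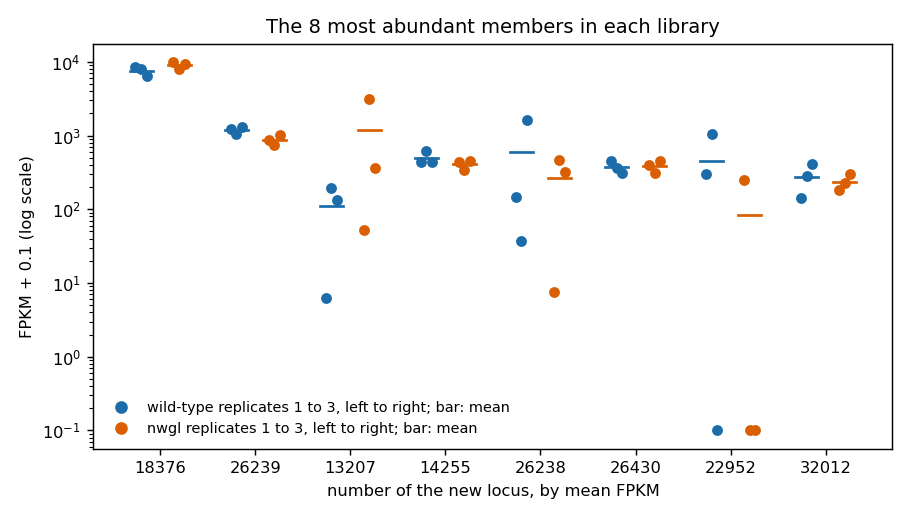
FPKM (log axis) of the 8 most abundant members, 1 point a library and 3 libraries a genotype, with values of 0 drawn at the bottom of the axis. Kohlrabi_newGene_18376 stays between 6425 and 9844 FPKM, while Kohlrabi_newGene_13207 runs from 6.06 to 3107.

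The members together took 3.78%, 3.95% and 5.24% of the summed FPKM in wild-type replicates 1, 2 and 3, and 5.51%, 5.50% and 3.76% in *nwgl* replicates 1, 2 and 3. The mean was 4.32% ± 0.794 (SD, n = 3) in the wild-type and 4.92% ± 1.01 (SD, n = 3) in *nwgl*, and the genotypes overlapped. Without Kohlrabi_newGene_18376 the shares were 2.34% ± 0.745 in the wild-type and 2.34% ± 0.773 in *nwgl* (SD, n = 3). With the 10 most abundant features of each library left out, the shares were 4.10% in the wild-type and 3.44% in *nwgl*, so the order of the genotypes turned. The features left out included Kohlrabi_newGene_18376 in every library, and 2 members in *nwgl* replicate 2, so part of the members' own signal was removed as well.

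Detection was examined next. FPKM above 0 in all 6 libraries was listed for 159 members (97.5%), for 4548 of the 4551 annotated genes of at least 10 FPKM (99.9%) and for all 34 later new loci. All 6 libraries reached 1 FPKM in 153 members (93.9%) and in 97.9% of these annotated genes, and 10 FPKM in 64 members (39.3%) and in 45.2%. Thus 99 members were below 10 FPKM in at least 1 library, and 10 were below 1 FPKM in at least 1.

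The other 4 members were listed at 0 somewhere, and in each of them the remaining libraries were far apart. Besides Kohlrabi_newGene_22952, Kohlrabi_newGene_19750 had 0, 21.9 and 438 FPKM in the wild-type and 0, 1.15 and 738 in *nwgl*. Its high values lay in replicate 3 of both genotypes and its zeros in replicate 1 of both. Kohlrabi_newGene_32706 had 0, 0 and 203 FPKM in the wild-type and 4.10, 14.6 and 5.31 in *nwgl*. Its wild-type libraries lay on both sides of *nwgl*, and the direction depended on the scale: the mean was 67.7 FPKM in the wild-type and 8.0 in *nwgl*, whereas the log2 fold change was 2.45 higher in *nwgl*, as logs weigh the zeros.

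Kohlrabi_newGene_32702 was listed at 0 in every wild-type library and had 17.2, 0 and 71.7 FPKM in *nwgl*. It is the member whose signal was found in 1 genotype and not in the other, but 1 *nwgl* library was also at 0, and no fold is given.

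The spread between plants of a genotype was measured as the SD of log2(FPKM + 0.1) within genotypes. The rule did not use it directly, but a mean of 10 FPKM can be carried by 1 high library, and 23 members had a median under 10 FPKM, so these values are given with no test. Its median over members was 0.603, with an interquartile range from 0.456 to 0.912, and over the annotated genes of at least 10 FPKM it was 0.620, from 0.435 to 0.856. In FPKM as deposited, members and annotated genes were therefore similarly variable in the middle of the distribution. The median over members was 0.599 after median-of-ratios scaling of the libraries and 0.695 after quantile normalization. That of the annotated genes was not computed after scaling, so the likeness holds for unscaled values. The members had more loci at the variable end: the SD was above 1 in 36 members (22.1%) and in 14.8% of the annotated genes, and above 2 in 9 members (5.52%) and in 48 annotated genes (1.05%). Plants of one genotype differed over 10-fold, on values raised by 0.1, in 27 members (16.6%) and in 194 annotated genes (4.26%). Of the 9 members with an SD above 2, 4 had a median under 10 FPKM, and of the 36 above 1, 13 had. Among the 141 new loci below 35000 and the 4081 annotated genes chosen by a median of at least 10 FPKM instead, a comparison added after the values were seen, the SD was above 1 in 16.3% and 12.5%, above 2 in 5 (3.55%) and 34 (0.833%), and plants of a genotype differed over 10-fold in 11.3% and 3.01%. Over all 6 libraries 12 members varied more than 100-fold. These shares are descriptions of loci within the same 6 libraries, which are not independent of each other.

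At the steady end the shares, also in FPKM as deposited, lay closer together. An SD under 0.3 was found in 16 members (9.82%) and in 9.47% of the annotated genes, and all 6 libraries lay within 2-fold in 24 members (14.7%) and in 734 annotated genes (16.1%). The plants of each genotype taken separately lay within 2-fold in 33 members (20.2%) and in 25.6% of the annotated genes. The steadiest member, Kohlrabi_newGene_750, had 24.3, 25.7 and 24.1 FPKM in the wild-type and 24.6, 22.5 and 25.2 in *nwgl* (SD 0.0701). Kohlrabi_newGene_26431 had 210, 199 and 181 FPKM in the wild-type and 172, 154 and 165 in *nwgl* (SD 0.0963). Kohlrabi_newGene_28111 had 14.3, 14.4 and 11.0 FPKM in the wild-type and 14.1, 13.8 and 12.8 in *nwgl* (SD 0.165). In the second of these all *nwgl* libraries were below all wild-type libraries by a small margin, and in the others the genotypes overlapped. The largest SDs were those of Kohlrabi_newGene_22952 (6.89), Kohlrabi_newGene_19750 (6.38) and Kohlrabi_newGene_32706 (4.54), all members with zeros.

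**Figure D3:**
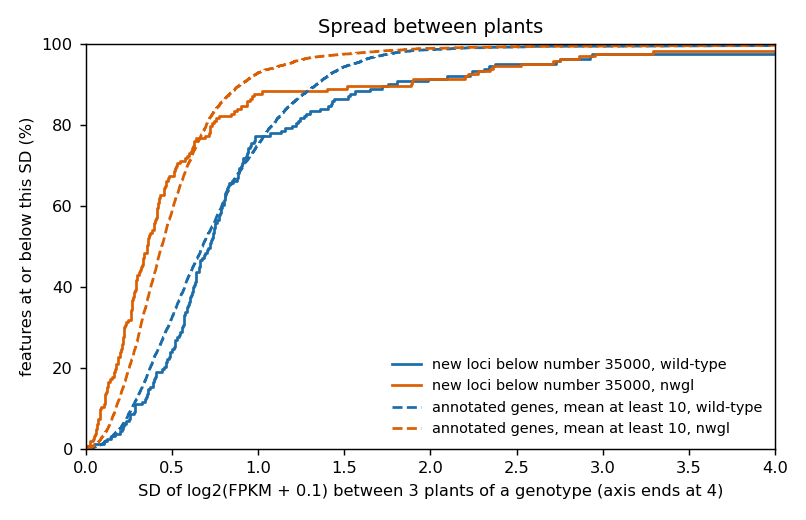
Spread between plants, as the SD of log2(FPKM + 0.1) within a genotype, for the 163 members and the annotated genes of at least 10 FPKM. Wild-type and *nwgl* are drawn separately, and the axis stops short of the largest SDs. The median was 0.719 in the wild-type and 0.359 in *nwgl* over members, and 0.679 and 0.441 over annotated genes. Pooled over genotypes, which is not drawn, the medians were 0.603 and 0.620, with 5.52% of members against 1.05% of annotated genes above 2.

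In FPKM as deposited, the wild-type libraries differed more among themselves than the *nwgl* libraries. The SD was higher in the wild-type in 131 members (80.4%) and in 71.5% of the annotated genes. Its median was 0.719 in the wild-type and 0.359 in *nwgl* over members, and 0.679 and 0.441 over annotated genes. The median over members pooled over genotypes, 0.603, was 0.459, 0.584 and 0.516 without wild-type replicates 1, 2 and 3. The SD of each genotype was not computed after scaling.

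Members and annotated genes differed in which library stood out. The highest of the 6 values lay in wild-type replicate 3 in 37 members (22.7%) but in 3.08% of the annotated genes, and in wild-type replicate 1 in 25 members (15.3%) but in 39.1% of the annotated genes. Of the 159 members above 0 throughout, 59 (37.1%) were lowest in wild-type replicate 1 and 41 (25.8%) in replicate 3, against 13.7% and 52.9% of the annotated genes. The 34 later new loci of at least 10 FPKM were highest in wild-type replicate 3 in 17.6% and in wild-type replicate 1 in 17.6%, and so lay nearer to the members than to the annotated genes. Wild-type replicate 2 was the highest library in 49 members (30.1%) and *nwgl* replicate 2 in 34 (20.9%), which left 5 members for *nwgl* replicate 1 and 13 for replicate 3.

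Set directly against each other, wild-type replicate 3 was over 2-fold above replicate 1 in 47 members (28.8%) and in 165 annotated genes (3.63%), and replicate 1 was over 2-fold above replicate 3 in 37 members (22.7%) and in 2190 annotated genes (48.1%). The median log2 difference, replicate 3 minus replicate 1, was 0.36 over members and -0.94 over annotated genes. FPKM as deposited was lower in replicate 3 for the typical annotated gene, with medians of 21.1 in replicate 1 and 11.6 in replicate 3. After median-of-ratios scaling, which shifts all features of a library by the same amount and so cannot alter the distance between members and annotated genes, the median differences were 0.73 and -0.57. After quantile normalization they were 1.13 and -0.07. The median of the members was thus higher in replicate 3 under FPKM as deposited and under both scalings, and after quantile normalization 88 members (54.0%) and 15.4% of the annotated genes were over 2-fold higher there, while 18 members (11.0%) and 907 annotated genes (19.9%) were over 2-fold higher in replicate 1. Of the 34 later new loci, 23.5% were over 2-fold higher in replicate 3 before scaling, and their median difference was 0.63 after quantile normalization, which are values between those of members and annotated genes. Both libraries carry the same genotype label, and what set these plants or libraries apart was not tested.

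**Figure D4:**
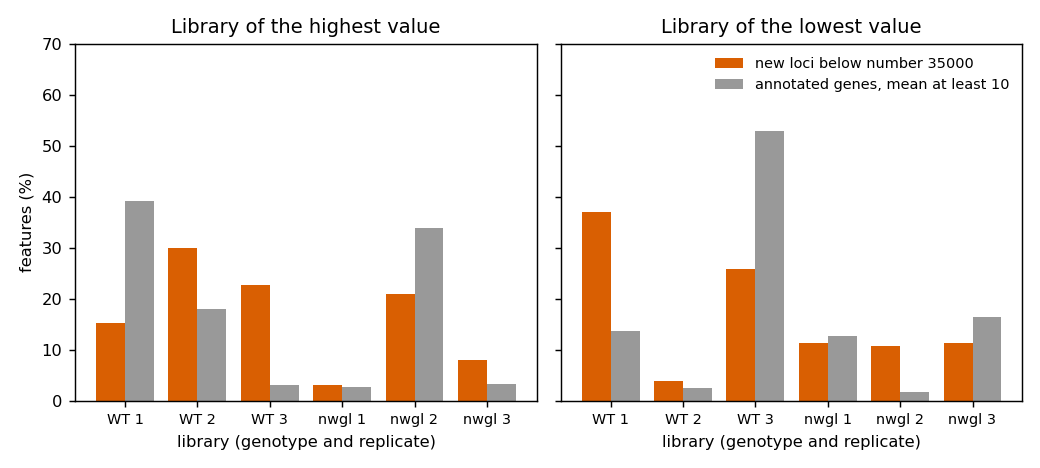
Share of features (percent, bars starting at 0) whose highest value (one panel) or lowest value (other panel) lies in each of the 6 libraries, for members and for annotated genes of at least 10 FPKM. Wild-type replicate 3 holds the highest value of 22.7% of the members and 3.08% of the annotated genes, and the lowest value of 52.9% of the annotated genes.

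The next question was whether the members differed between *nwgl* and wild-type leaves. All 24332 features with a mean of at least 0.1 FPKM were tested together by limma on log2(FPKM + 0.1). Calls needed both an adjusted p below 0.05 (Benjamini-Hochberg) and a change of 1 or more on the log2 scale, in either direction. Of the 163 members, 11 were called (6.75%), 8 higher and 3 lower in *nwgl*. The background was 4.89% of all features tested, 3.69% higher and 1.20% lower. An unadjusted p under 0.05 was found in 28 members (17.2%) and in 16.2% of all features. The genotypes did not overlap in 27 members (16.6%), 16 higher and 11 lower in *nwgl*, against 20.3% of all features, of which 11.8% were higher and 8.54% lower. Without wild-type replicate 1 the direction turned, with 20 members higher and 49 lower (42.3% in all, against 31.8% of all features, 15.7% higher and 16.1% lower). It also turned without wild-type replicate 3, with 21 members higher and 25 lower (28.2% in all, against 32.6% of all features, 13.2% higher and 19.4% lower). Without *nwgl* replicate 2, 20 were higher and 23 lower (26.4% in all, against 30.8% of all features, 13.2% higher and 17.6% lower). In these fits all features were likewise more often lower, so the turn was not particular to the members. The median log2 fold change was -0.11 over members and -0.04 over all features. Over the 6 libraries these shares were near those of all features tested, many of which are less abundant than the members. Among the annotated genes of at least 10 FPKM the shares were lower than among members. Of these genes 3.52% were called, 135 higher and 25 lower in *nwgl*, 11.1% had an unadjusted p under 0.05, and 13.2% did not overlap. For a single locus, the smallest p that an exact permutation test could give with 3 libraries per genotype was 0.1.

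All 11 called members had a mean under 10 FPKM in one genotype, so they passed the threshold on the mean through the genotype in which they were high. A mean of at least 10 FPKM in each genotype was held by 121 members. Of these 0 were called by limma, 4 had an unadjusted p under 0.05, and 7 (5.79%) did not overlap, with 3 higher and 4 lower in *nwgl*. The lowest adjusted p among them was 0.132. In the same class of annotated genes, 11 of 3638 (0.302%) were called and 6.84% did not overlap. The condition of 10 FPKM in each genotype uses the same means that the test compares, and it removed all 11 called members. The 0 calls lie near the share of these annotated genes, so they are no result about the 121 loci. They also do not show that these loci were equal between the genotypes.

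**Figure D5:**
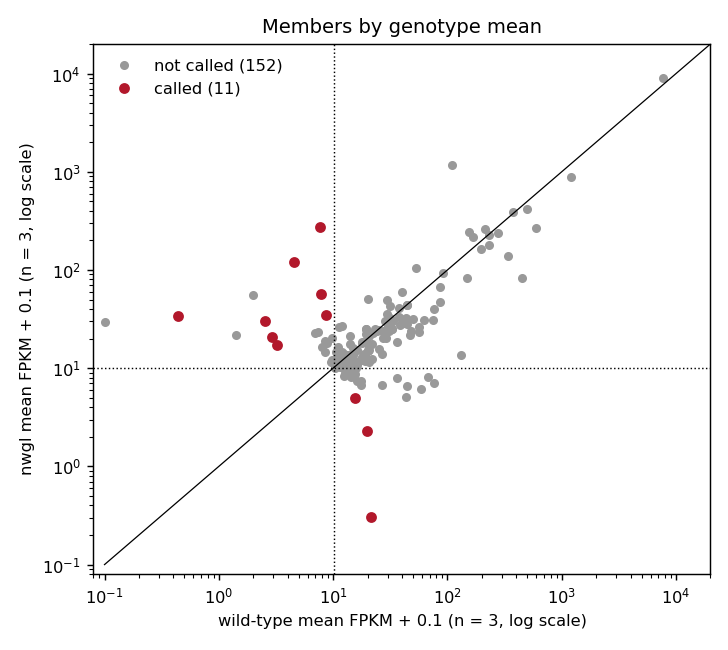
Mean FPKM of each of the 163 members in wild-type and *nwgl* leaves (log axes, n = 3 libraries each), with the 11 called members marked. The called members lie below 10 FPKM in one genotype, and the members at or above 10 FPKM in both hold no call.

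Of the called members, 8 rose in *nwgl* by 2.08 to 5.49 on the log2 scale. The largest rise was that of Kohlrabi_newGene_6513, with 0.683, 0.208 and 0.126 FPKM in the wild-type and 28.9, 70.5 and 2.31 in *nwgl*. All wild-type libraries were below 1 FPKM and all *nwgl* libraries above 2 FPKM, although the *nwgl* plants lay far apart. The means were 0.339 ± 0.301 and 33.9 ± 34.4 FPKM (SD, n = 3), and the log2 fold change was 5.49 (SE 1.08, adjusted p = 0.0208 by limma). Its wild-type values lie near the pseudocount of 0.1 FPKM. With a pseudocount of 1 the change was 3.87 and the call was lost (adjusted p = 0.0565 by limma), as it was without the filter on low values (0.0845) and with a filter at 10 FPKM (0.240).

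Kohlrabi_newGene_20801 had 15.2, 5.77 and 1.76 FPKM in the wild-type and 141, 652 and 27.8 in *nwgl*. The lowest *nwgl* library was 27.8 and the highest wild-type library 15.2, so the genotypes did not overlap. The means were 7.56 ± 6.87 and 274 ± 332 FPKM (SD, n = 3), with a log2 fold change of 4.64 (SE 1.09, adjusted p = 0.0446 by limma). The call was lost in 6 of 9 other fits, with a pseudocount of 1 or 0.01, without the filter on low values or with one at 1 or 10 FPKM, and without the trend (adjusted p between 0.0521 and 0.133 by limma). In both loci *nwgl* replicate 2 was the highest library and *nwgl* replicate 3 the lowest of the 3 *nwgl* libraries.

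The 3 members that fell had low values in all *nwgl* plants. Kohlrabi_newGene_31477 had 10.4, 30.2 and 22.9 FPKM in the wild-type and 0.143, 0.220 and 0.250 in *nwgl*. All 3 *nwgl* libraries were near the bottom of the range, and the log2 fold change was -6.01 (SE 0.47, adjusted p = 0.000394 by limma), with means of 21.2 ± 9.98 and 0.204 ± 0.0547 FPKM (SD, n = 3). On this scale the pseudocount of 0.1 FPKM takes up a large part of the *nwgl* level, so the fold is understated. The call was lost with a filter at a mean of 10 FPKM, where the SE was 1.76 (adjusted p = 0.150 by limma).

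Kohlrabi_newGene_11901 had 13.8, 21.1 and 23.8 FPKM in the wild-type and 2.14, 2.53 and 1.98 in *nwgl*. It fell by 3.06 on the log2 scale (SE 0.37, adjusted p = 0.00241 by limma), from 19.6 ± 5.17 to 2.21 ± 0.281 FPKM (SD, n = 3). The plants of each genotype lay within 2-fold of each other. The smallest fall was that of Kohlrabi_newGene_30498, which also lay nearest above the threshold, with 11.5, 21.6 and 12.8 FPKM in the wild-type and 5.01, 4.75 and 4.70 in *nwgl* (log2 fold change -1.59, SE 0.38, adjusted p = 0.0458 by limma). The genotypes did not overlap, but this adjusted p is close to the limit.

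The other 2 loci just above the threshold were of both kinds. Kohlrabi_newGene_22197 had 4.90, 2.34 and 2.12 FPKM in the wild-type and 15.4, 20.9 and 15.1 in *nwgl*, and was called (log2 fold change 2.50, SE 0.42, adjusted p = 0.0105 by limma). Kohlrabi_newGene_8451 had 5.14, 12.9 and 12.7 FPKM in the wild-type and 8.50, 8.90 and 12.3 in *nwgl*, with overlapping genotypes and a log2 fold change of 0.05.

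The count of called members depended on single libraries. Without wild-type replicate 1 it was 5 (3 higher, 2 lower in *nwgl*), or 3.07% against 2.33% of all features tested in that fit. Without wild-type replicate 2 it was also 5 (3 higher, 2 lower), or 3.07% against 3.12%, and without replicate 3 it was 6 (4 higher, 2 lower), or 3.68% against 2.96%. Without *nwgl* replicate 1 it was 3 (1 higher, 2 lower), or 1.84% against 1.57%, without *nwgl* replicate 2 it was 4 (2 higher, 2 lower), or 2.45% against 1.95%, and without *nwgl* replicate 3 it was 11 (8 higher, 3 lower), or 6.75% against 5.22%. Among members the excess of higher over lower calls was thus not seen without *nwgl* replicate 1 or 2, on 3 and 4 calls. All features kept the excess, with 1.20% higher and 0.366% lower without *nwgl* replicate 1, and 1.41% and 0.534% without *nwgl* replicate 2. Of the 11 members, 3 were called in all 6 of these fits: Kohlrabi_newGene_11901, Kohlrabi_newGene_31477 and Kohlrabi_newGene_29321. The last had 1.53, 3.49 and 2.22 FPKM in the wild-type and 38.4, 39.4 and 12.6 in *nwgl* (log2 fold change 3.49, SE 0.53, adjusted p = 0.00650 by limma), and is named here after its values were seen. Kohlrabi_newGene_11901 and Kohlrabi_newGene_29321 were called in the 9 other fits as well, with another pseudocount, filter, scaling or model, and Kohlrabi_newGene_31477 in 8 of these. Kohlrabi_newGene_6513 and Kohlrabi_newGene_20801 were called in 1 of the 6 fits each, Kohlrabi_newGene_22197 in 3 (not without wild-type replicate 2, *nwgl* replicate 1 or *nwgl* replicate 2), and Kohlrabi_newGene_30498 in 0 of the 6 and 4 of the 9 others.

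A second table of the study lists transcripts that were classed as lncRNAs, by the locus IDs of the assembly. Members and lncRNA loci were matched by their values: a lncRNA locus was taken as the same as a member where the FPKM of its transcripts, summed, lay within 0.001 FPKM of the member in each of the 6 libraries. Of the 163 members, 9 (5.52%) matched, whereas 458 of the 3423 new loci examined (13.4%) did, and 0 of the 4551 annotated genes of at least 10 FPKM. Most of the well expressed new loci were therefore not found among the lncRNA loci by this comparison. A locus with a further expressed transcript that was not classed as a lncRNA would differ in its sum and could not match. A member without a match can therefore still hold a listed lncRNA, and the shares do not show how many members do. The matching loci were looked up after the values were seen.

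The matches were Kohlrabi_newGene_4169 with MSTRG.16613, Kohlrabi_newGene_5258 with MSTRG.19138, Kohlrabi_newGene_11941 with MSTRG.31962, Kohlrabi_newGene_13205 with MSTRG.34152, Kohlrabi_newGene_14450 with MSTRG.362, Kohlrabi_newGene_24486 with MSTRG.55088, Kohlrabi_newGene_26272 with MSTRG.57743, Kohlrabi_newGene_31477 with MSTRG.66579 and Kohlrabi_newGene_31884 with MSTRG.67720. The member that fell most in *nwgl*, Kohlrabi_newGene_31477, is thus also listed as a lncRNA locus, and it was the called one among the 9 (11.1%, against 4.89% of all features tested). In 4 of the 9 (44.4%), that one included, the genotypes did not overlap, against 20.3% of all features tested. With 9 loci these shares are a description.

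Another of these, Kohlrabi_newGene_31884, had 43.9, 64.5 and 49.1 FPKM in the wild-type and 123, 93.2 and 98.5 in *nwgl* (log2 fold change 1.01, SE 0.44, adjusted p = 0.301 by limma). Kohlrabi_newGene_5258 had 17.2, 35.3 and 26.8 FPKM in the wild-type and 14.5, 12.9 and 13.7 in *nwgl* (log2 fold change -0.89, adjusted p = 0.314 by limma). Kohlrabi_newGene_4169 had 2.56, 11.3 and 9.87 FPKM in the wild-type and 18.7, 16.1 and 13.8 in *nwgl* (log2 fold change 1.27, adjusted p = 0.299 by limma). In these 3 all libraries of one genotype lay above all of the other, and no difference passed the test.

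The other 5 had overlapping genotypes. Kohlrabi_newGene_26272 had 21.1, 4.69 and 105 FPKM in the wild-type and 2.47, 8.34 and 4.10 in *nwgl*, with wild-type replicate 3 far above the rest. Kohlrabi_newGene_14450 had 37.5, 68.9 and 24.8 FPKM in the wild-type and 5.58, 6.17 and 85.3 in *nwgl*, and Kohlrabi_newGene_11941 had 15.3, 35.6 and 9.49 FPKM in the wild-type and 19.6, 9.49 and 121 in *nwgl*. In both, *nwgl* replicate 3 was the highest library. Kohlrabi_newGene_14450 was the one member of at least 10 FPKM in each genotype that was called in any alternative fit, that without *nwgl* replicate 3. Kohlrabi_newGene_24486 had 57.4, 51.2 and 18.6 FPKM in the wild-type and 35.5, 24.2 and 35.7 in *nwgl*, and Kohlrabi_newGene_13205 had 24.4, 40.1 and 17.9 FPKM in the wild-type and 23.3, 16.4 and 21.4 in *nwgl*. In these last loci the libraries lay closer together.

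The numbers of the new loci follow the assembly IDs in text order: in 456 of 457 steps (99.8%) between neighbouring matched loci, the lncRNA locus ID also came later when sorted as text. Members with close numbers thus have close IDs in that order, but their positions in the genome are not given. Among members no more than 10 numbers apart, 18 runs held 43 members. In 11 of the 25 pairs of neighbours within runs (44.0%), both were highest in the same library, against 21.1% of all 13203 pairs of members. Pairs within a run share members, so this is a description.

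The longest run was Kohlrabi_newGene_26268, Kohlrabi_newGene_26269, Kohlrabi_newGene_26272, Kohlrabi_newGene_26273 and Kohlrabi_newGene_26275, all highest in wild-type replicate 3. In that library they measured 125, 160, 105, 153 and 186 FPKM. In wild-type replicate 1 they measured 2.78, 14.7, 21.1, 15.5 and 11.9 FPKM, and in replicate 2 5.19, 53.5, 4.69, 6.22 and 61.1 FPKM. The *nwgl* libraries lay between 0.92 and 52.5 FPKM. The run thus stands out in 1 wild-type library. The genotypes overlapped in 4 of the 5 loci, and in Kohlrabi_newGene_26269 every *nwgl* library was below every wild-type library without passing the test (log2 fold change -3.44, adjusted p = 0.106 by limma).

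The run of Kohlrabi_newGene_20792, Kohlrabi_newGene_20796 and Kohlrabi_newGene_20801 was highest in *nwgl* replicate 2 throughout. Kohlrabi_newGene_20792 had 1.88, 1.04 and 2.75 FPKM in the wild-type and 50.1, 110 and 4.75 in *nwgl*, and its log2 fold change of 4.01 had an adjusted p of 0.0505 by limma. Kohlrabi_newGene_20796 had 1.06, 0.69 and 2.19 FPKM in the wild-type and 18.6, 44.5 and 1.77 in *nwgl*. The order of the *nwgl* plants, replicate 2 above 1 above 3, was the same in the 3 loci, and of the 3 only Kohlrabi_newGene_20801 passed the test.

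Kohlrabi_newGene_11903, numbered next but one to Kohlrabi_newGene_11901, was also lower in every *nwgl* library. It had 12.9, 19.9 and 19.6 FPKM in the wild-type and 6.80, 6.69 and 8.35 in *nwgl*, and the log2 fold change was -1.23 (adjusted p = 0.103 by limma). These runs were picked after their values were seen.

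The study's pathway tables list 11 new loci, 8 of them numbered below 35000, and 0 are members. None of the well expressed new loci can therefore be placed in a named pathway from those tables. They cover enriched pathways of the study's differentially expressed genes, so a locus outside those genes could not appear in them.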

How the data were processed

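The authors aligned the reads with HISAT2, assembled transcripts with StringTie 1.3.1 and deposited FPKM values, in a gene table that includes the new loci and in a table of lncRNA transcripts, both used here unchanged. Libraries were assigned by their labels. Counts were not used here, so the count test of the study's methods was replaced by limma 3.58.1 in R 4.3.3 (lmFit and eBayes with trend) on log2(FPKM + 0.1), over 24332 features of mean FPKM at least 0.1. The scale understates changes of low loci. The fit was tested on simulated data. Tables were made in Python 3.11.15 with numpy 2.4.6 and pandas 2.3.3, and figures with matplotlib 3.10.9. SEs, intervals and p-values rest on 3 plant samples per genotype. Each variance is drawn towards that of features of like abundance, so an SE can differ from the spread between plants.

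The members, lists and rules were chosen with earlier results of these data known. Named are the 8 most abundant members, the 3 loci on each side of the threshold, the 2 largest rises and 2 largest falls among called members without overlap, the 3 largest and 3 smallest SDs, members listed at 0 and members in the study's pathway tables. Members matched to lncRNAs, runs of neighbours, Kohlrabi_newGene_29321 and the contrast between wild-type replicates 1 and 3 were added after values were seen.

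Replicate numbers are shared by both genotypes in the labels, but no source used here says that a number marks a shared day or batch. Alternatives were pseudocounts of 1 and 0.01, other filters, median-of-ratios scaling, quantile normalization, no trend, a replicate block, other thresholds for members, and leaving out each library. FPKM gives no counts, so counting errors were not computed, and no sequences are shown.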

Additional observations from a re-analysis of the deposited data

How the results depend on the processing

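Of the members, 11 were called. The count was 7 with a pseudocount of 1, 9 with 0.01, 5 with no filter on low values, 8 and 6 with a mean FPKM of at least 1 and 10, and 8 without the trend. It was 13 after median-of-ratios scaling (10 higher, 3 lower) and 15 after quantile normalization (11 higher, 4 lower). The shares called over all features under these settings, and with the block below, are not given, so the counts are no result about the members. With a library left out it was between 3 and 11, and 2 members were called in all 15 alternative fits. Other thresholds for members gave 25 of 331 at a mean of at least 5 FPKM, 4 of 75 at 20, 6 of 141 at a median of at least 10, and 0 of 121 at 10 in each genotype, where 4 had an unadjusted p under 0.05 by limma. These thresholds use the main fit, in which 4.89% of all features tested were called. Replicates with the same number were not paired (correlations of their deviations -0.03, 0.12 and 0.18), and with the replicate number as a block 10 members were called. Between 31 and 69 members did not overlap with a library left out, since fewer values have to be apart (20 higher and 49 lower without wild-type replicate 1). These were 19.0% to 42.3% of the members, against 23.6% to 32.6% of all features tested. Under the other scalings 29 and 25 members did not overlap, and the share over all features is not given. All 6 libraries were above 0 in 324 of the 331 members of at least 5 FPKM and in 72 of the 75 of at least 20. The median spread of 0.603 was 0.459 to 0.661 with a library left out, 0.695 after quantile normalization and 0.582 for loci chosen by the median, and the median coefficient of variation was 0.390. The share of summed FPKM in *nwgl* was 3.44% without the 10 most abundant features, members among them, below the 4.10% of the wild-type, and 4.63% to 5.51% with a library left out. After quantile normalization 88 members were over 2-fold higher in wild-type replicate 3 than in replicate 1 and 18 the other way round. The counts of neighbours highest in one library and of matched lncRNA loci stayed within 1.5 times of their values. The depth behind single values is unknown, so differences near 0.1 FPKM were not read. The cause of these shifts was not tested.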
